A study of Mus musculus with 6 samples.

Results

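The sodium pump genes described here are 7 genes of the mouse lung count table, the beta subunits *Atp1b1*, *Atp1b2* and *Atp1b3* and the FXYD regulators *Fxyd1*, *Fxyd3*, *Fxyd5* and *Fxyd6*. They were found by gene symbol among 54532 genes, and all 7 passed the filter on low counts that left 16568 genes to test. The gene set was chosen from earlier results of these libraries, in which the difference of *Fxyd6* between genotypes was already known. The genotype differences of the 7 genes are therefore given as a description, and their p-values serve to place them among all genes and not as evidence for the set.

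The libraries came from whole lung tissue of 3 GR+/+ and 3 GRdim/dim mice, one library of poly(A)-captured RNA per mouse. In GRdim/dim mice a point mutation of the glucocorticoid receptor (GR) gene impairs dimerization of the receptor, on a mixed 129/SvEv and C57BL/6 background, and GR+/+ mice were their littermates. Every mouse of both genotypes, aged 10 to 16 weeks, underwent 1 h of hemorrhagic shock (HS), with the mean arterial pressure held at 35 mmHg, and then 4 h of resuscitation. The comparison is thus one of genotypes after HS, and a lung without HS was not analysed here. The mutation is carried in the germline and so is not limited to one cell type. The GR+/+ mice were 2 females and 1 male, and the GRdim/dim mice 1 female and 2 males.

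The sodium pump (Na,K-ATPase) exports sodium and imports potassium at the expense of ATP. Its catalytic alpha subunit is brought to the cell surface and stabilized by a glycosylated beta subunit. A small membrane protein of the FXYD family may join the complex and tune its affinity for the ions and its turnover. In the alveolar epithelium the pump sits in the basolateral membrane and, together with the epithelial sodium channel of the apical side, drives the clearance of fluid from the airspace, and glucocorticoids are known to raise its subunits in fetal and adult lung cells.

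The depth of GR+/+ libraries ran from 16361747 to 32082940 total counts, with replicate 3 the deepest, and that of GRdim/dim libraries from 15687734 to 24444604. At these totals 3 counts amount to 0.0953 to 0.194 CPM (counts scaled to a library total of 1000000), far under the level of any of the 7 genes. The tissue label held up against its markers, since the summed level of 5 alveolar type 2 markers lay between 11872 and 19207 CPM and that of 5 alveolar type 1 markers between 3138 and 5195 CPM. The CPM values given here were also corrected by the TMM factors. In whole tissue, a change in the number of cells that express a gene and a change in the RNA per cell cannot be told apart.

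The genes lie at separate loci except for a cluster on chromosome 7, in build GRCm38. There *Fxyd5* (chr7:31032722-31042481), *Fxyd1* (chr7:31051678-31057199) and *Fxyd3* (chr7:31068172-31076704) lie on the minus strand, with *Fxyd7* between *Fxyd5* and *Fxyd1*, 32 bases from the former and 211 bases from the latter. *Fxyd6* lies apart on the plus strand of chromosome 9 (chr9:45370185-45396159), 3510 bases from *Fxyd2*. *Atp1b3* is on the minus strand of the same chromosome (chr9:96332655-96364442). *Atp1b1* (chr1:164437109-164458355) and *Atp1b2* (chr11:69599736-69605942) are on the minus strand of their chromosomes. Each of the 7 was annotated as a gene of several exons, from 5 to 9 merged exon blocks.

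Promoter windows, 250 bases before to 50 bases after a transcription start, were taken from RefSeq (GRCm38.p6) for 6 of the 7 genes, all but *Atp1b2*, in 7 windows. The window of *Fxyd6*, the gene with the largest genotype difference of the 7, is shown with those of *Atp1b3* and *Atp1b1*, the most abundant beta subunits, whose fold changes had opposite signs. Each is written 5′ to 3′ on the strand of its gene, and capitals mark a CCAAT box (CCAAT) or a GC box (GGGCGG) on either strand.
Fxyd6, chr9:45369935-45370234, plus strand: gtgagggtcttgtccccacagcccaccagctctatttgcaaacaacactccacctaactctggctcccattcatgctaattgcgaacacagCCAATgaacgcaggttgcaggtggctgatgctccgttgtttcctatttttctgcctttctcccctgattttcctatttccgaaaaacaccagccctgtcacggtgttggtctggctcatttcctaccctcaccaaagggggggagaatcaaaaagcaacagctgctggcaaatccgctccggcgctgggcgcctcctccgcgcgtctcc
Atp1b3, chr9:96364382-96364681, minus strand: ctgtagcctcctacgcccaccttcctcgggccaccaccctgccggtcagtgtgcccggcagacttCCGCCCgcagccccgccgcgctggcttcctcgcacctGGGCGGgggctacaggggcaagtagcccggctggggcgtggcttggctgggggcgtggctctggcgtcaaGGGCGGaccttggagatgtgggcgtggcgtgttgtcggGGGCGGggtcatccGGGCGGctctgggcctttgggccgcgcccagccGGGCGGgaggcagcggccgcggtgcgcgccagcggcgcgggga
Atp1b1, chr1:164458306-164458605, minus strand: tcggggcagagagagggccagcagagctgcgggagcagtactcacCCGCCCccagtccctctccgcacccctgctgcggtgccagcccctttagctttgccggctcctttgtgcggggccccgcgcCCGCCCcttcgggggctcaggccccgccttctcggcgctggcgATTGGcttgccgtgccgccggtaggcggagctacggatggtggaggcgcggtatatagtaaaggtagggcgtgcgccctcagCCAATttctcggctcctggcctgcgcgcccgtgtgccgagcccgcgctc

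The half-site of the GR binding element (AGAACA, either strand) was in none of the 7 windows, against 19% of all 32851 promoter windows of that length. The full palindrome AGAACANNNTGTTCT was in none of them either, and in 3 of all windows. These letters cover only 300 bases around a start, and nothing follows from them about binding elsewhere. The *Fxyd6* window held 1 CCAAT box, starting 159 bases before the start site, a motif present in 37.4% of all windows. Its GC content of 54.3% was close to the median of all windows, 52.7%, and it held 12 CpG dinucleotides against a median of 7. The shown *Atp1b3* window had a GC content of 76% and 34 CpG dinucleotides with 6 GC boxes, and the *Atp1b1* window 71% and 31 with 2 GC boxes and 2 CCAAT boxes. A GC box occurred in 35.7% of all windows. A TATA box (TATAAA), found in 13.6% of all windows, occurred among the windows of these genes only in that of *Fxyd1*, on the opposite strand and just after the start.

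Between genotypes, *Fxyd6* was the gene of the set that differed most, about 3 times as high in GRdim/dim lungs. *Atp1b3* stood higher by a smaller amount in the same lungs, and the other 5 genes overlapped between genotypes. By the rule for differentially expressed genes (DEGs: edgeR's quasi-likelihood test with an adjusted p under 0.05, and more than 0.5 log2 units higher or lower), 1 of the 7 was called, *Fxyd6*, where 0.169% of all genes tested were. With DESeq2 and the same thresholds 1 of the 7 was called, again *Fxyd6*, against 1.7% of all genes. At an unadjusted edgeR p under 0.05 there were 2 of 7, *Fxyd6* and *Atp1b3*, against 9.6%. For these 2 genes no library of one genotype fell within the range of the other, against 14.8% of all genes. Since the difference of *Fxyd6* was known when the set was chosen, nothing is read from these counts. Of the 7 log2 fold changes 3 were positive, and their median was -0.03, beside a median of 0.01 over all genes.

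**Figure D1:**
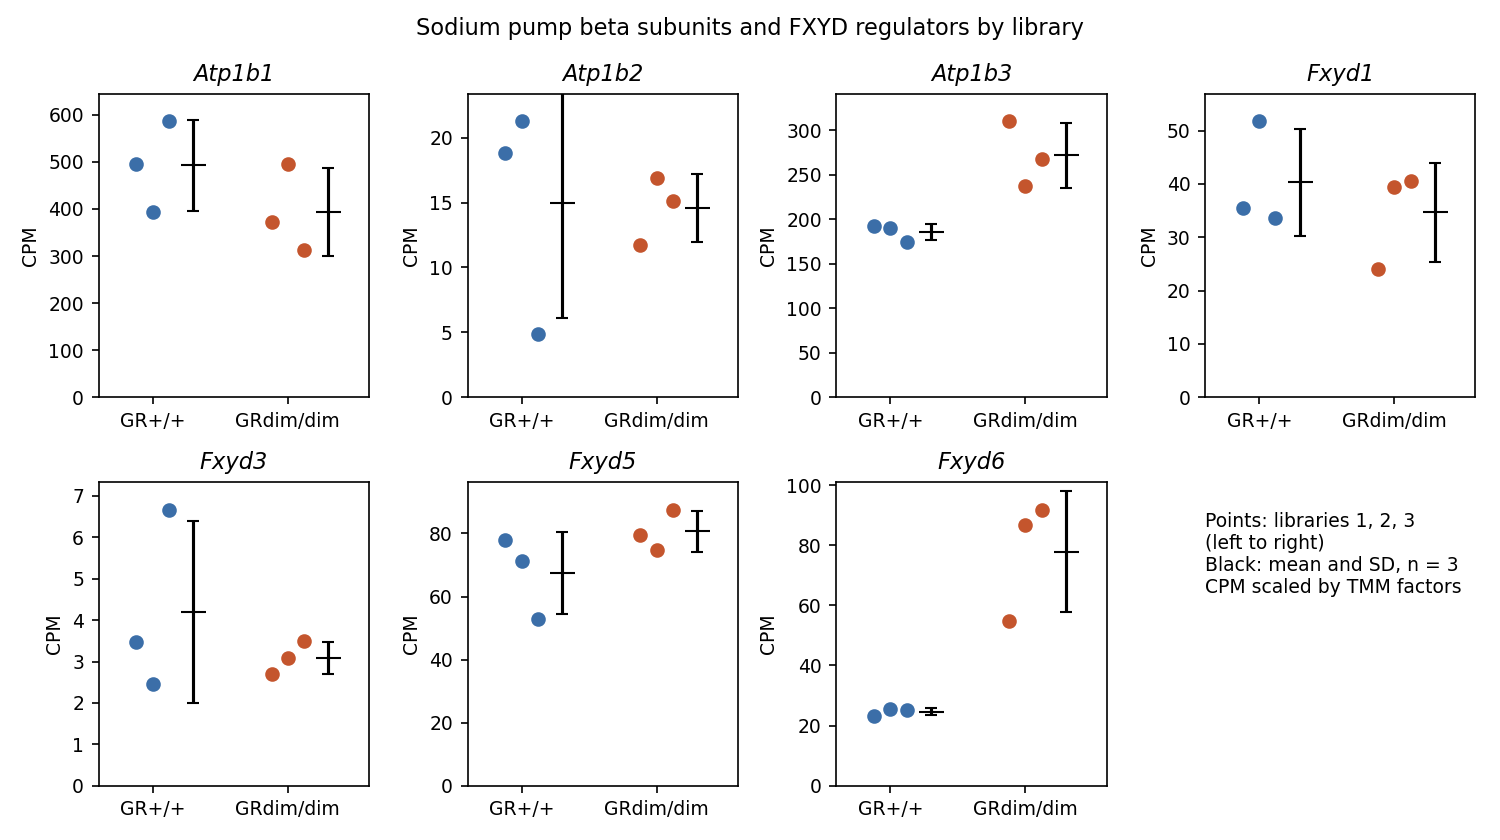
Level of each of the 7 genes in CPM (vertical axes start at 0) in GR+/+ (blue) and GRdim/dim (orange) lungs, one point per library, with the mean and SD of 3 libraries in black. *Fxyd6* and *Atp1b3* are the genes whose GRdim/dim points all lie above the GR+/+ points.

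*Fxyd6* encodes an FXYD protein best known from brain and inner ear, where it associates with the pump. Its level was 23.2, 25.5 and 25.3 CPM in GR+/+ replicates 1, 2 and 3, and 54.7, 86.7 and 91.8 CPM in GRdim/dim replicates 1, 2 and 3. Every GRdim/dim library was above every GR+/+ library, and GRdim/dim replicate 1 was lower than the other GRdim/dim libraries. The GR+/+ libraries were close to each other, with a coefficient of variation of 4.99% against 25.9% among GRdim/dim libraries. The mean was 24.7 ± 1.23 CPM in GR+/+ and 77.8 ± 20.1 CPM in GRdim/dim lungs (SD, n = 3 each), a 3.15-fold difference and a log2 fold change of 1.66 (SE 0.21). The edgeR adjusted p was 0.0177, and with DESeq2 it was 8.35e-09. Ordered by edgeR p, *Fxyd6* was number 12 of 16568 genes and number 5 of those higher in GRdim/dim lungs.

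The size of the *Fxyd6* difference changed little when the processing was changed, while its call did not hold in most fits with one library fewer. The log2 fold change lay between 1.52 and 1.86 over 12 alternatives, with edgeR or DESeq2 adjusted p between 4.07e-11 and 0.0933. Without GRdim/dim replicate 1 the gene stayed a DEG (log2 fold change 1.86, edgeR adjusted p = 0.00909). With any one of the other 5 libraries left out, the edgeR adjusted p was between 0.0551 and 0.0933. With a covariate for sex-linked expression, since the sexes were not balanced, it was 1.72 (SE 0.23, edgeR adjusted p = 0.0338).

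**Figure D2:**
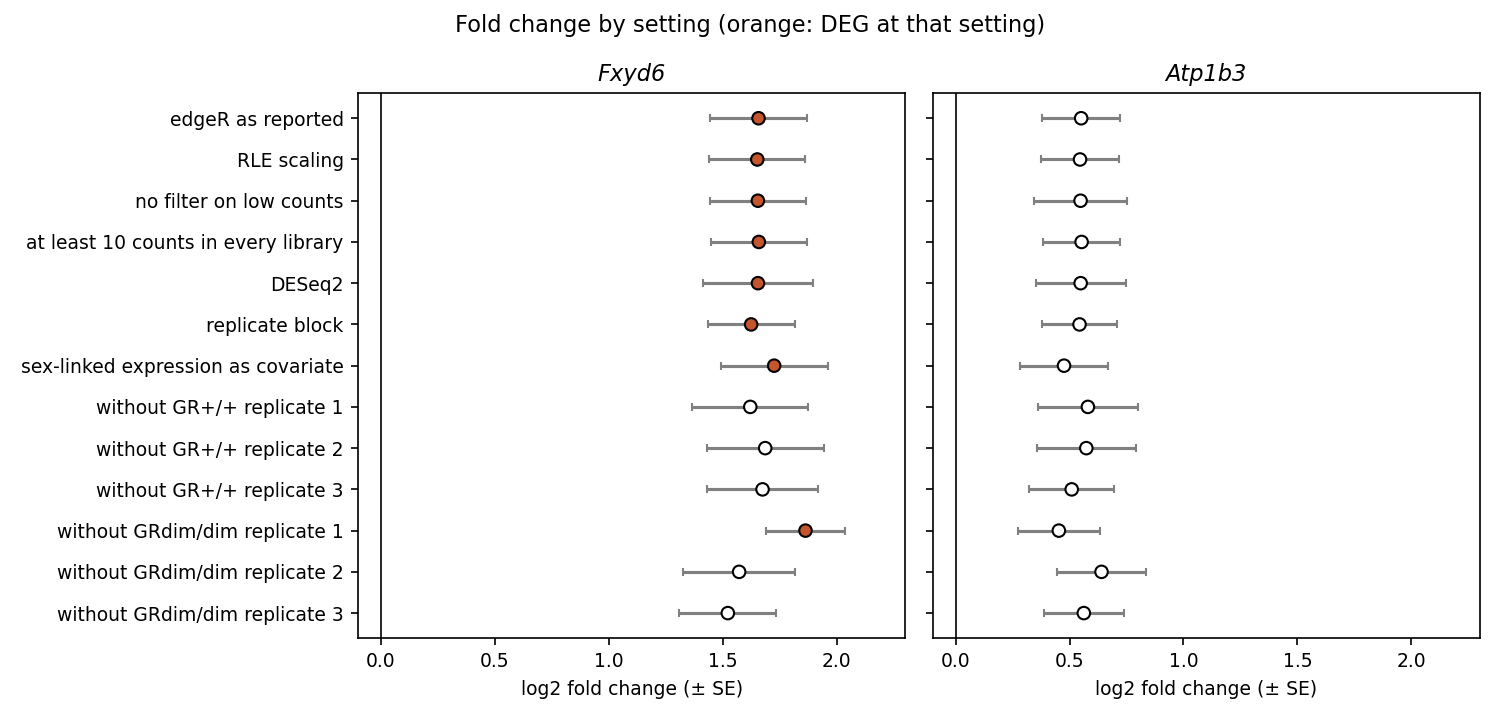
log2 fold change of *Fxyd6* and *Atp1b3* (GRdim/dim over GR+/+, horizontal axis, bars ± SE) under each way of processing, with orange points where the gene passed the DEG rule. *Fxyd6* stays between 1.52 and 1.86 and *Atp1b3* between 0.45 and 0.64.

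*Atp1b3* encodes the beta 3 subunit, also known as the surface antigen CD298 of many cell types. It was measured at 192, 189.8 and 175 CPM in GR+/+ replicates 1 to 3 and at 310.0, 238 and 268 CPM in GRdim/dim replicates 1 to 3. The lowest GRdim/dim library, replicate 2, was above the highest GR+/+ library. The log2 fold change was 0.55 (SE 0.17), a 1.47-fold difference, with an unadjusted edgeR p of 0.0086 and an adjusted p of 0.334. It thus failed the DEG rule, and under 12 alternatives the adjusted p from edgeR or DESeq2 was 0.164 to 0.589. Of the transcript windows of 31 bases of *Atp1b3*, 16.2% also occur in the gene *Gm1848*, on which 0 to 3 reads per library were counted, so an exchange of reads between them is possible in the authors' counting.

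*Atp1b1* encodes beta 1, the main beta subunit of epithelia, and its mean was lower in GRdim/dim lungs. It stood at 496, 395 and 587 CPM in GR+/+ libraries and at 372, 496 and 312 CPM in GRdim/dim libraries. GRdim/dim replicate 2 was as high as GR+/+ replicate 1, so the genotypes overlapped. The log2 fold change of -0.32 (SE 0.23, edgeR adjusted p = 0.727) was within the spread of the libraries. *Nme7*, on the opposite strand, shares 575 exon bases with *Atp1b1*. The use of strand in counting is not given in the sources used here, but *Nme7* had 162 to 421 counts per library where *Atp1b1* had 4834 to 18471.

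*Atp1b2*, the beta 2 subunit of glia and of muscle, was the lowest of the beta genes. Its values were 18.8, 21.3 and 4.86 CPM in GR+/+ libraries and 11.8, 16.9 and 15.1 CPM in GRdim/dim libraries. GR+/+ replicate 3 was lower than all others, and the other GR+/+ libraries were above all GRdim/dim libraries. The log2 fold change was -0.03 (SE 0.45, edgeR adjusted p = 0.992), and without GR+/+ replicate 3 it was -0.46.

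Among the other FXYD genes, *Fxyd5* (dysadherin, a regulator that also affects adhesion between cells) was the most abundant in CPM. It was at 77.9, 71.2 and 52.8 CPM in GR+/+ libraries and at 79.5, 74.9 and 87.6 CPM in GRdim/dim libraries, with a log2 fold change of 0.26 (SE 0.18, edgeR adjusted p = 0.721). GR+/+ replicate 3 was the lowest library, and GRdim/dim replicate 2 fell below GR+/+ replicate 1. *Fxyd1* encodes phospholemman, the phosphorylated pump inhibitor of heart and smooth muscle. It was at 35.5, 51.8 and 33.6 CPM in GR+/+ libraries and at 24.0, 39.4 and 40.6 CPM in GRdim/dim libraries, with a log2 fold change of -0.22 (SE 0.25, edgeR adjusted p = 0.858). The extremes were GR+/+ replicate 2 at the top and GRdim/dim replicate 1 at the bottom, with the other libraries overlapping, and without GR+/+ replicate 2 the difference was 0.01.

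*Fxyd3* (Mat-8, a regulator of epithelia) was the lowest of the 7, at 41 to 210 counts per library. It stood at 3.47, 2.46 and 6.67 CPM in GR+/+ libraries and at 2.70, 3.07 and 3.49 CPM in GRdim/dim libraries. The high value of GR+/+ replicate 3 set the sign of the difference, -0.46 (SE 0.40, edgeR adjusted p = 0.788) with it and 0.06 without it. *Lgi4*, on the opposite strand, shares 2059 exon bases with *Fxyd3* and had 30 to 48 counts per library. How reads on the shared bases were counted is not known, since the use of strand is not given.

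**Figure D3:**
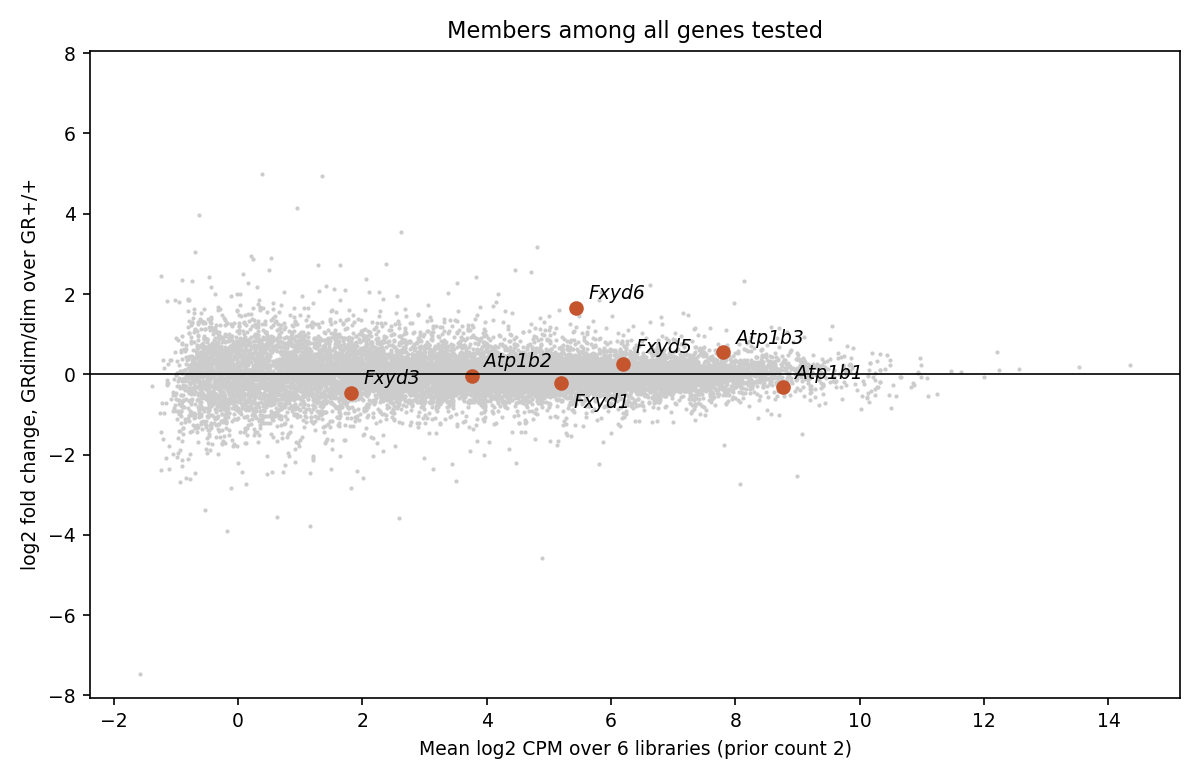
Mean log2 CPM over the 6 libraries (horizontal axis) against the log2 fold change of GRdim/dim over GR+/+ (vertical axis) for the 16568 genes tested (grey), with the 7 genes in orange. *Fxyd6* at 1.66 lies above most genes of its level, and the other 6 lie between -0.46 and 0.55.

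To compare levels between genes, counts were divided by the deposited gene length and scaled to the same total in each library (TPM, a length-scaled level). In GR+/+ lungs the order by mean TPM was *Atp1b1* (457 ± 59.4), *Atp1b3* (226 ± 41.4), *Fxyd1* (54.1 ± 17.8), *Fxyd5* (47.4 ± 14.8), *Fxyd6* (17.4 ± 2.10), *Atp1b2* (11.2 ± 7.21) and *Fxyd3* (2.40 ± 0.91; SD, n = 3). The ranges of *Fxyd1* and *Fxyd5* overlapped, and so did those of *Fxyd6* and *Atp1b2*, while *Fxyd6* lay below *Fxyd1* and *Fxyd5* in every GR+/+ library. In GRdim/dim lungs the order was *Atp1b1* (364 ± 95.2), *Atp1b3* (325 ± 65.3), *Fxyd5* (54.6 ± 3.98), *Fxyd6* (53.1 ± 10.5), *Fxyd1* (44.5 ± 9.27), *Atp1b2* (10.1 ± 1.44) and *Fxyd3* (1.80 ± 0.09; SD, n = 3). There the ranges of *Fxyd5*, *Fxyd6* and *Fxyd1* overlapped, as did those of *Atp1b1* and *Atp1b3*. With these lengths *Fxyd6* thus stood below *Fxyd1* and *Fxyd5* in GR+/+ lungs. With the same lengths it was above *Fxyd1* within each GRdim/dim library, and below *Fxyd5* only in replicate 1.

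*Fxyd6* made up 13.7%, 13.1% and 17.3% of the summed TPM of the 4 FXYD genes in GR+/+ replicates 1, 2 and 3, and 30.4%, 36.6% and 35.7% in GRdim/dim replicates 1, 2 and 3. The share of *Fxyd1* was 44.2% ± 5.35 in GR+/+ and 28.7% ± 3.22 in GRdim/dim lungs (SD, n = 3), without overlap. The sum includes *Fxyd6*, so a higher *Fxyd6* by itself lowers the other shares. The level of *Fxyd1* overlapped between genotypes (log2 fold change -0.22). *Fxyd5* held 38.8% ± 5.46 and 35.9% ± 6.50, and *Fxyd3* 2.23% ± 1.47 and 1.17% ± 0.09. The ratio of *Fxyd6* to *Fxyd1* in TPM was 0.349, 0.262 and 0.400 in GR+/+ libraries and 1.21, 1.17 and 1.20 in GRdim/dim libraries. Within GRdim/dim lungs it was nearly even, although *Fxyd6* itself was lower in replicate 1, where *Fxyd1* was lower as well.

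The summed FXYD level was 131, 146 and 86.9 TPM in GR+/+ and 135, 163 and 164 TPM in GRdim/dim libraries, which overlapped. Without *Fxyd6* the sum was 104 ± 28.6 and 101 ± 5.99 TPM (SD, n = 3). A share depends on the length used, since the deposited length joins all exons of a gene. The length of the principal transcript was a scaling chosen after the data had been seen. With it the *Fxyd6* share was 10.2% in GR+/+ and 25.4% in GRdim/dim lungs. The share of *Fxyd1* was 46.9% and 32.7%, and that of *Fxyd5* 41.7% and 41.3%. The mean share of *Fxyd5* was thus above that of *Fxyd6* in both genotypes. The ratio of *Fxyd6* to *Fxyd1* was then 0.171 to 0.260 in GR+/+ and 0.763 to 0.789 in GRdim/dim libraries, so that *Fxyd6* stayed below *Fxyd1* in both genotypes. With counts not divided by length the *Fxyd1* share was 29.4% and 17.5%, and the ratio 0.492 to 0.751 and 2.20 to 2.28. Which of both transcripts was the more abundant in GRdim/dim lungs therefore depended on the length used. The ratio was higher in every GRdim/dim than in every GR+/+ library. The choice of length cannot change that order, since the same length of a gene served all libraries.

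Among the beta subunits, *Atp1b1* held 65.9% ± 5.87 of the summed TPM in GR+/+ and 51.7% ± 7.94 in GRdim/dim lungs, and *Atp1b3* 32.6% ± 4.87 and 46.8% ± 8.01 (SD, n = 3). The share of *Atp1b3* was 32.7%, 37.4% and 27.6% in GR+/+ libraries and 51.2%, 37.6% and 51.6% in GRdim/dim libraries. GRdim/dim replicate 2 was thus next to GR+/+ replicate 2 and the other GRdim/dim libraries were well above. The summed beta level was 695 ± 75.6 TPM in GR+/+ and 699 ± 114 TPM in GRdim/dim lungs.

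**Figure D4:**
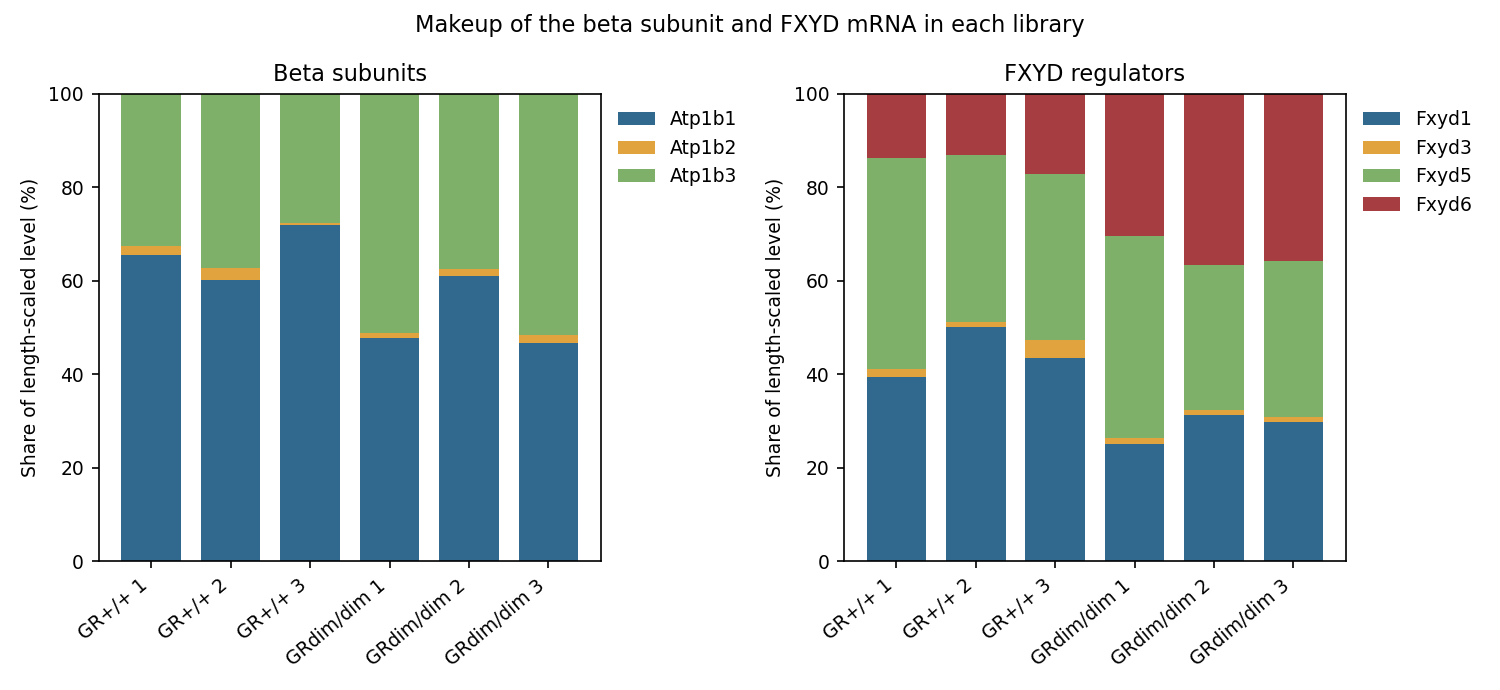
Share of each gene (vertical axis, % of summed TPM) in the beta subunit mRNA (left) and in the mRNA of the 4 FXYD genes (right), one bar per library. *Fxyd6* takes 13.1% to 17.3% in GR+/+ and 30.4% to 36.6% in GRdim/dim libraries.

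The partners of these genes were read from a list of 39 other pump and sodium transport genes, of which 34 could be tested. None was a DEG with edgeR (0.169% of all genes were), 1 was with DESeq2 (1.7% of all genes) and 4 had an unadjusted edgeR p under 0.05 (9.6% of all genes). The genotypes did not overlap for 5 of the 34, near the 14.8% of all genes, and the median log2 fold change of the list was -0.04.

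*Atp1a4*, known as the alpha of sperm, was counted 22, 57 and 53 times in GR+/+ and 13, 15 and 10 times in GRdim/dim libraries, a log2 fold change of -1.69 (SE 0.48, edgeR adjusted p = 0.289), without overlap in CPM. The remaining FXYD genes were all low. *Fxyd2*, the gamma subunit of kidney and the neighbour of *Fxyd6*, was counted 12, 32 and 26 times in GR+/+ libraries and 3, 11 and 16 times in those of GRdim/dim mice (log2 fold change -1.08, SE 0.67, edgeR adjusted p = 0.677). *Fxyd7*, between *Fxyd5* and *Fxyd1*, gave 0.49 (SE 0.48) and *Fxyd4* -0.03 (SE 0.56). *Atp1b4*, with 0 to 5 counts per library, was too low to test, as were the 3 H,K-ATPase genes on the list.

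*Stk39* encodes SPAK, a kinase that phosphorylates the sodium-coupled chloride carriers. It was at 20.1, 17.7 and 20.97 CPM in GR+/+ and 43.1, 46.3 and 38.0 CPM in GRdim/dim libraries. All GRdim/dim libraries were above all GR+/+ libraries, a 2.17-fold difference with a log2 fold change of 1.12 (SE 0.18). The edgeR adjusted p of 0.0503 was just outside the threshold, and with DESeq2 it was 8.63e-05. With any one library left out, the edgeR adjusted p of *Stk39* was between 0.0558 and 0.211. With the covariate for sex-linked expression it was 0.0932. *Sik1*, a salt-inducible kinase, was at 293, 138 and 270 CPM in GR+/+ and 297, 580 and 379 CPM in GRdim/dim libraries, again without overlap but with GRdim/dim replicate 1 close to GR+/+ replicate 1 (log2 fold change 0.84, SE 0.31, edgeR adjusted p = 0.439). The 3 genes of the epithelial sodium channel had log2 fold changes of 0.03 to 0.34 and edgeR adjusted p of 0.706 or more.

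**Figure D5:**
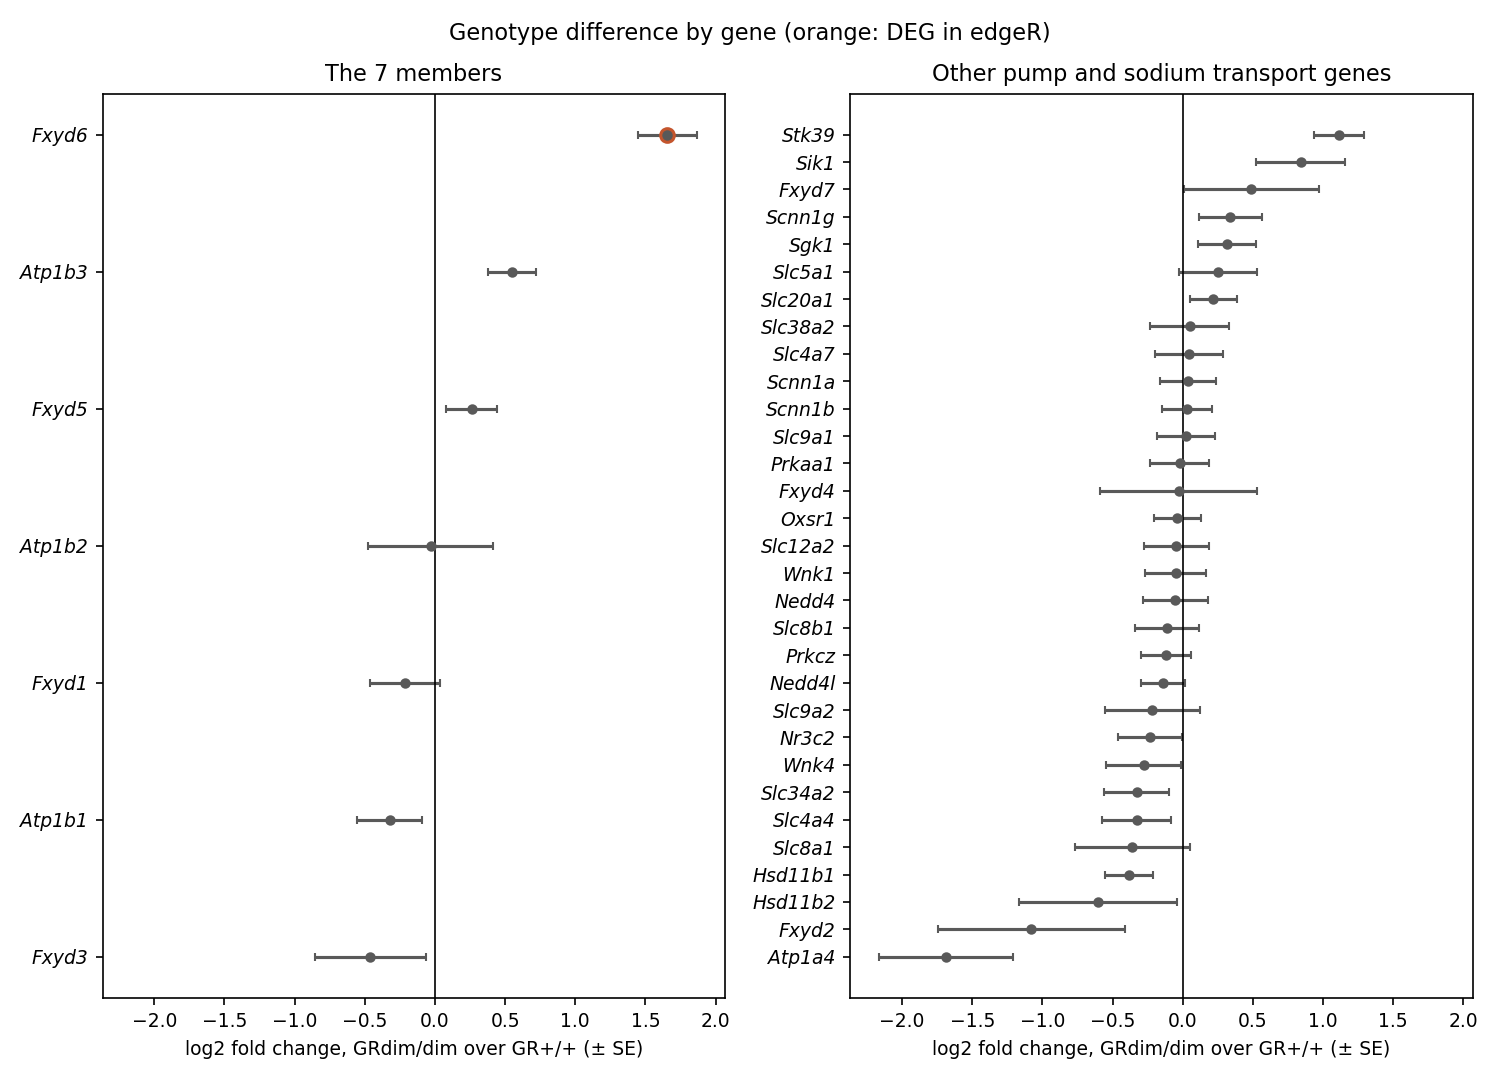
log2 fold change of GRdim/dim over GR+/+ (horizontal axes, bars ± SE) for the 7 genes (left) and 31 tested genes of the other pump and sodium transport list (right), ordered by size. The orange point marks *Fxyd6*, the only DEG of both panels in edgeR, and *Stk39* leads the right panel at 1.12.

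Of 12 distinct nearest protein-coding genes tested on either side, 0 were DEGs with edgeR or DESeq2, 1 had an unadjusted edgeR p under 0.05 (9.6% of all genes did), and log2 fold changes lay between -1.08 and 0.49. That gene was *Tfdp2*, 9009 bases from *Atp1b3*, at -0.47 (SE 0.20, edgeR adjusted p = 0.499), opposite in sign to *Atp1b3*. Next to *Fxyd6*, *Tmprss13* was at -0.02 (SE 0.28) and *Fxyd2* at -1.08, against 1.66 for *Fxyd6*.

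The genes with the profile most like that of *Fxyd6* over the 6 libraries, by Pearson correlation of log2 CPM, were *Layn* (r = 0.996), *Tra2a* (r = 0.993) and *Gm12840* (r = 0.993). Those most like *Atp1b3* were *Pigk* (r = 0.995), *Cyp7b1* (r = 0.992) and *Gm49041* (r = 0.990). For the other 5 genes the nearest profiles were *9330182L06Rik*, *Zfp382* and *Ephb6* for *Atp1b1*, *Ppp1r18*, *Lgr6* and *Frmd8* for *Atp1b2*, *B4gat1*, *Egfl7* and *Fah* for *Fxyd1*, *Gm13012*, *Hif1an* and *Ppm1h* for *Fxyd3*, and *Wbp11*, *Syk* and *Zfp703* for *Fxyd5*, all 21 genes with r of 0.981 to 0.996. The points are 6 libraries that share genotype and depth, and the best of 16568 genes were taken, so these values are a description only. Over the 21 pairs of the 7 genes themselves r ranged from -0.86 (*Atp1b2* with *Fxyd3*) to 0.79 (*Atp1b3* with *Fxyd6*), and 9 were positive. With each genotype centred on its own mean, *Atp1b3* with *Fxyd6* became -0.81.

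Of the cell type marker lists, the sums of T cell, B cell and macrophage markers did not overlap between genotypes, and the sums of all other lists did. Among single genes, 14.8% of all tested did not overlap. The nerve and Schwann cell markers summed to 27.1 to 32.6 CPM in GR+/+ and 25.9 to 35.4 CPM in GRdim/dim libraries. The summed level of 5 T cell markers was 16.02 to 28.9 CPM in GR+/+ and 34.4 to 45.9 CPM in GRdim/dim libraries, and that of 5 B cell markers 48.8 to 115 and 123 to 430.4 CPM, with positive log2 fold changes for all 5 genes of each list. The 5 macrophage markers summed to 348 to 379.8 CPM in GR+/+ and 178 to 281 CPM in GRdim/dim libraries. Most of that difference was in *Chil3* (log2 fold change -0.88, SE 0.21), while *Mrc1* and *Cd68* were both at -0.03 and overlapped.

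The 5 neutrophil markers gave 216 to 408 and 302 to 965 CPM, highest in GRdim/dim replicate 1, in which *Fxyd6* was lowest among GRdim/dim libraries and *Atp1b3* highest. The 5 endothelial markers overlapped in sum, at 2063 to 3224 and 2689 to 3065 CPM, but went different ways, with *Cldn5* at 0.94 (SE 0.26, without overlap) and *Kdr* at -0.50 (SE 0.21). The 5 ciliated cell markers all had negative log2 fold changes and overlapped in sum, at 195 to 349.5 and 116 to 207 CPM. None of these markers was at 0 in all libraries. Of the T cell, B cell, macrophage, endothelial and ciliated cell lists all 5 genes were tested with edgeR, and of the neutrophil list 4. None of these genes was a DEG with edgeR, where 0.169% of all genes were. With DESeq2, where 1.7% of all genes were DEGs, 4 genes of these lists were called. They were *Trac* (DESeq2 adjusted p = 0.0253), *Retnlg* (0.0225), *Chil3* (0.0171) and *Cldn5* (0.0273). *Ly6g*, a neutrophil marker, was too low to test with edgeR. The part of these cells in the values of *Fxyd6* and *Atp1b3* was not tested.

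The 7 pulmonary vein cardiomyocyte markers summed to 501, 906 and 152 CPM in GR+/+ replicates 1, 2 and 3 and to 597, 400.0 and 759.5 CPM in GRdim/dim replicates 1, 2 and 3. The 5 smooth muscle markers were at 243 to 610.4 CPM in GR+/+ and 447 to 611 CPM in GRdim/dim libraries, lowest in GR+/+ replicate 3. Both sums overlapped between genotypes, although the smooth muscle marker *Acta2* by itself did not (log2 fold change 0.56, SE 0.30). GR+/+ replicate 2, highest in cardiomyocyte markers, was also highest in *Atp1b2* and *Fxyd1*, and GR+/+ replicate 3, lowest in both lists, was lowest in *Atp1b2*. Other libraries went differently. *Fxyd1* was lowest in GRdim/dim replicate 1, where the cardiomyocyte sum was 597 CPM. *Atp1b2* was higher in GRdim/dim replicate 2 than in GRdim/dim replicate 3 (16.9 and 15.1 CPM), the reverse of the cardiomyocyte sums. The part of these cells in the values of *Atp1b2* and *Fxyd1* was not tested.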

How the data were processed

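The table the authors deposited holds, for 6 lung libraries (3 per genotype), reads counted on each gene as raw counts with no normalization, beside a gene length. Per the labels' processing notes the build was mm10 and DESeq2 was used, and the aligner, the counting tool and the use of strand are not given in the sources used here. Of 54532 genes, 54409 were found in GENCODE M21 (GRCm38) and 53462 had identical coordinates there.

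Counts were tested in R 4.3.3 with edgeR 4.0.16 (TMM, filterByExpr, robust glmQLFit, glmQLFTest) and adjusted by Benjamini-Hochberg over 16568 genes. DESeq2 1.42.0 gave adjusted p-values for 16150 genes. log2 CPM values used a prior count of 2. TPM and shares used the deposited length. The script was tested on simulated data.

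Counts of same-genotype libraries differed beyond sampling noise (chi-square per degree of freedom of 19.2 or more), and each library was used as 1 mouse. An exact permutation test of 3 against 3 cannot go under 0.1, so none is given.

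The members, gene lists and rules were chosen with earlier results of these data known. The text names all 7 genes, other subunits and FXYD genes, every DEG and the 3 largest differences of the other list, the 3 most alike genes per member and the nearest genes. Some genes that this rule covers are not reported here. *Sik1* and the neighbouring genes that overlap exons were named after their values were seen. The alternatives were RLE scaling, no filter, at least 10 counts per library, DESeq2, a replicate block, a sex covariate, no fold threshold and each library left out.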

Additional observations from a re-analysis of the deposited data

How the results depend on the processing

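With 3 lungs per genotype the spread between mice limits what can be called. The number of DEGs was 28 with edgeR, 522 without the filter on low counts, 274 with DESeq2 and 4 (without GR+/+ replicate 2) to 22 with one library left out. Of the 7 genes, 0 to 1 passed with one library left out, *Fxyd6* only without GRdim/dim replicate 1. Of the other list, 3 passed without the filter (*Stk39* and *Sik1* among them), 1 with at least 10 counts in every library and 1 with DESeq2 (*Stk39* in both), against 0 in the fit reported. The cause of these differences was not tested. The median log2 fold change of the 7 genes was -0.15 to 0.31 with one library left out.

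Between genotypes, deviations of libraries with the same replicate number correlated at 0.22, 0.04 and -0.05, and those with unlike numbers at -0.27 to 0.19. With 3 libraries per genotype these values cannot settle whether the replicate numbers pair the libraries. With the replicate block the median of the 7 genes was 0.17, *Atp1b2* was at 0.17 in place of -0.03, *Fxyd6* stayed a DEG (edgeR adjusted p = 0.0273) and 34 genes were DEGs. With one library left out, the sign reversed in some fits for *Atp1b2* (-0.46 to 0.32, positive without GR+/+ replicate 1 or 2 or GRdim/dim replicate 1), *Fxyd1* (-0.34 to 0.011, positive without GR+/+ replicate 2) and *Fxyd3* (-0.72 to 0.057, positive without GR+/+ replicate 3). *Atp1b1*, *Atp1b3*, *Fxyd5* and *Fxyd6* kept their sign under all 12 alternatives. Counts not divided by length gave a *Fxyd6* share of 18.3% in GR+/+ and 39.2% in GRdim/dim lungs.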
